A study of Mus musculus with 10 samples.

Results

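The 10 keratin genes described here were chosen by name from the platform annotation of the arrays: Krt5, Krt14 and Krt15 of the basal epidermal layer, Krt1, Krt10 and Krt77 of the suprabasal layers, and Krt6a, Krt6b, Krt16 and Krt17, which keratinocytes switch on in wounds. Of these, 8 had a feature of their own, out of 30743 genes with such a feature, and all 8 were among the 17635 genes tested. Krt6a and Krt6b shared 1 feature, so their signal cannot be split between them. The samples were wound-edge biopsies of male db/db mice [BKS(D)-Leprdb/JOrlRj)] on a C57BL/6 background, which carry a defective leptin receptor and are obese and diabetic. The mice were 11 weeks old, were then caged singly for 1 week, and received 2 full-thickness wounds on the back with a 4 mm punch. In the miR-132 group (5 mice) 0.5 nmol of miR-132 mimic, mixed with the in vivo transfection reagent MaxSuppressor In Vivo RNA-LANCEr II in 100 µl, was injected once into the skin at 4 points of each wound edge right after wounding, in the control group (5 other mice) the same amount of control mimic with the same reagent, and biopsies were taken 6 days after injury. Both groups were db/db, had 3% isoflurane, hair removal cream and buprenorphine at 0.03 mg/kg during the first 2 days, and there was no unwounded or non-diabetic group among these arrays. The labels do not say whether both wounds of a mouse went into 1 sample. Values are log2 signal on Affymetrix Clariom D arrays, 1 array per mouse, and a difference of 1 on this scale is a 2-fold difference.

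Keratins are the intermediate filament proteins of epithelial cells, and a filament is built from pairs of 1 type I and 1 type II keratin. In the epidermis basal keratinocytes make Krt5 with Krt14, and cells that leave the basal layer replace them with Krt1 and Krt10. After injury keratinocytes at the wound edge turn on Krt6a, Krt6b, Krt16 and Krt17 and keep them on while the wound closes. In the mouse genome the type I members (Krt10, Krt14, Krt15, Krt16, Krt17) lie on chromosome 11 and the type II members (Krt1, Krt5, Krt6a, Krt6b, Krt77) on chromosome 15.

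The agent that separates the groups is a synthetic copy of a microRNA, which lowers messenger RNAs by pairing through its seed. The labels do not name the arm of the mimic, so both mature sequences of the mouse gene are shown, from RefSeq on GRCm38.p6, chromosome 11, plus strand, with the seed (bases 2 to 8) in capitals. The 3p arm lies at chr11:75173723-75173744 and the 5p arm at chr11:75173686-75173707, and their seeds differ.
mmu-miR-132-3p: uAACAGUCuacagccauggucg
mmu-miR-132-5p: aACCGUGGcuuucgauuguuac

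Most of these keratins were too bright for the scale. The deposited values share an upper limit of 19.93, the log2 of 1000000, and 45 of the 80 values of the 8 keratins with their own feature lay at it. Krt1 and Krt16 were at the limit on all 10 arrays, as was the feature shared by Krt6a and Krt6b. For these 4 genes no difference between the groups can be given. Krt5, the type II partner of the basal pair, was at the limit on 3 of 5 miR-132 arrays and on 5 of 5 control arrays, with 19.90 on miR-132 replicate 1 and 18.97 on miR-132 replicate 5. Krt14, its type I partner, was at the limit on 4 of 5 miR-132 arrays and 5 of 5 control arrays, with 19.84 on miR-132 replicate 1. Krt10, the suprabasal type I keratin, was at the limit on 5 of 5 miR-132 arrays and 3 of 5 control arrays, with 19.58 on control replicate 3 and 18.43 on control replicate 4. A value at the limit is only a lower bound, so the means of Krt5, Krt14 and Krt10 are bounds as well and no difference is drawn from them. The members measured below the limit on every array were 3: Krt17, Krt77 and Krt15.

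**Figure D1:**
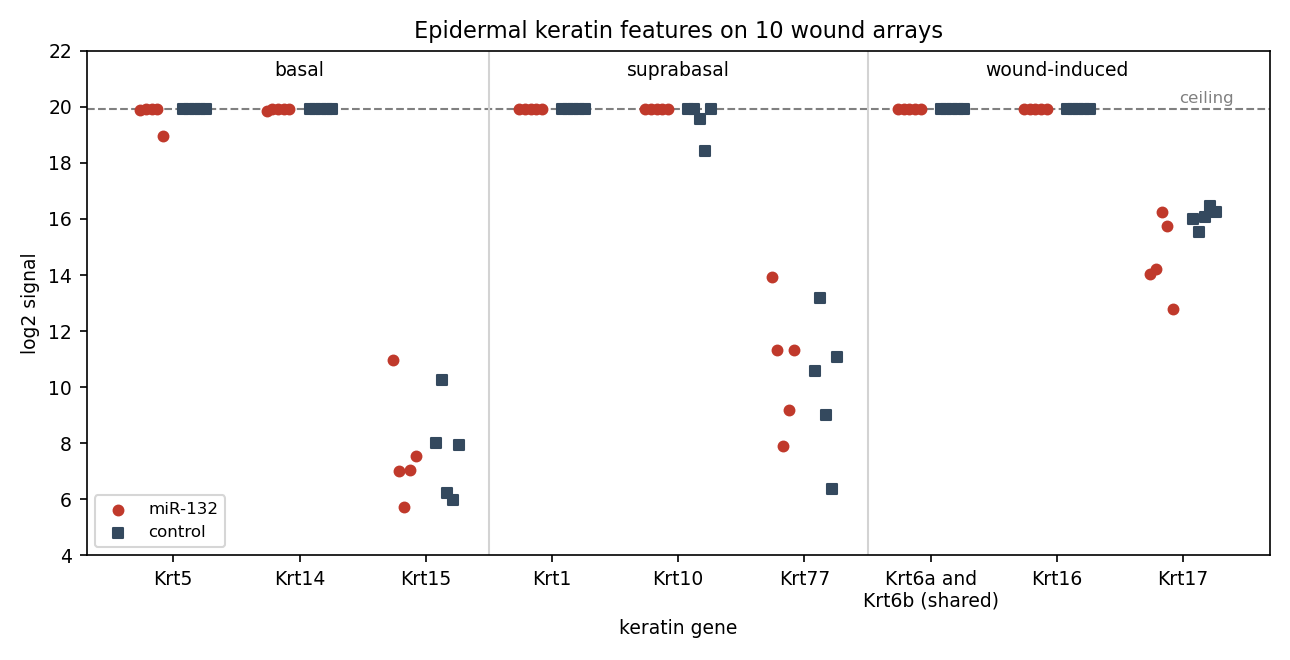
Log2 signal of the keratin features (x axis, by class) on each array, with miR-132 arrays as red circles left of control arrays as dark squares, in replicate order. The dashed line is the shared limit of 19.93. Krt15, Krt77 and Krt17 are the members with all 10 points below it, and the miR-132 points of Krt17 span 12.78 to 16.26 against 15.52 to 16.47 in controls.

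The scale was also narrower just below the limit. Among tested genes never at the limit, the median SD between arrays was 0.63 with miR-132 and 0.33 in controls for the 316 genes whose control mean lay from 14 to 16. It was 0.19 with miR-132 and 0.03 in controls for the 70 genes from 19 up to the limit. Krt17, with a control mean of 16.06, lay where this narrowing was small. In the band from 16 to 17 the median SD was 0.60 with miR-132 and 0.28 in controls over 125 genes.

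Krt17 was the wound-induced keratin that could be measured, and it averaged lower with miR-132 than with control mimic without passing the adjusted threshold. It encodes a type I keratin of hair follicles that is induced in wounded epidermis. Its signal was 14.04, 14.22, 16.26, 15.74 and 12.78 on miR-132 replicates 1 to 5, against 16, 15.52, 16.07, 16.47 and 16.23 on control replicates 1 to 5. Replicates 1, 2 and 5 of the miR-132 group lay below every control array, and replicates 3 and 4 lay within the control range, so the groups overlapped. The mean was 14.61 ± 1.4 with miR-132 and 16.06 ± 0.35 in controls (SD, n = 5 each). The difference, miR-132 minus control, was -1.45 ± 0.58 on the log2 scale (SE), 2.73-fold lower on average, with a 95% interval of -2.76 to -0.14. In limma's fit over all tested genes the p was 0.0331 unadjusted and 0.596 after Benjamini-Hochberg adjustment, and the exact two-sided permutation p was 0.0794, where 0.0079 is the smallest that 5 against 5 arrays can give.

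Markers of keratinocytes other than keratins averaged lower beside Krt17. In bulk tissue, fewer keratinocytes and less RNA per keratinocyte cannot be told apart. All 12 markers were tested and all 12 averaged lower, where 53.6% of all tested genes did, with a median of -0.61 beside -1.45 for Krt17. The marker list was chosen with earlier results of these data known, so its counts are a description and not a test. Of the 12, 6 were lower at an unadjusted p under 0.05, where 5.61% of all tested genes were, and 0 passed after adjustment. All 12 lay above the 75th percentile of signal. Of the 10298 genes above it, 855 were lower and 78 higher at an unadjusted p under 0.05. Brighter genes thus leaned further to lower than all tested genes. The mean of the 12 was 11.92, 11.83, 12.83, 11.52 and 11.58 on miR-132 replicates 1 to 5, against 12.62, 12.89, 12.37, 12.56 and 12.75 on control replicates 1 to 5. The miR-132 array with the highest marker mean, replicate 3, was also the one with the highest Krt17. On replicate 4 Krt17 lay within the control range while the marker mean was the lowest of all 10 arrays. The part of these markers in the Krt17 difference was not tested.

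No keratin passed the adjusted threshold of 0.05, and neither did any other gene (0 of 17635, 0.0%). At an unadjusted p under 0.05 limma gave 1426 genes (8.09%), 990 lower (5.61%) and 436 higher (2.47%), with 576 lower and 612 higher after quantile normalization and 1379 lower and 160 higher after centring each array on its median. Krt17 was the 1 keratin of the 8 under that threshold. In the 3 keratins measured below the limit the groups overlapped, and the other 5 of the 8 had values tied at the limit in both groups, so that they could not be separated. Over all tested genes, 0.646% lay entirely lower and 0.284% entirely higher. Of the 3 measured keratins, Krt17 and Krt15 averaged lower and Krt77 higher, where 53.6% of all tested genes averaged lower and 45.0% higher. The Krt17 difference was -0.71 without miR-132 replicates 2 and 5, whose arrays had the narrowest signal ranges. It was -1.86 without miR-132 replicate 3, with an adjusted p of 0.15. The unadjusted p of Krt17 exceeded 0.05 when any 1 of miR-132 replicates 1, 2 and 5 or control replicates 1, 3, 4 and 5 was left out.

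The arrays of the miR-132 group stood further apart for Krt17 than those of the control group. The range was 3.48 with miR-132 and 0.95 in controls. A wider SD with miR-132 was common on these arrays, as 68.8% of the 17419 tested genes below the limit had one, and the median SD was 0.23 with miR-132 and 0.17 in controls.

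Krt77, the suprabasal keratin that could be measured, varied more widely within each group than its mean differed between them. It is a type II keratin related to Krt1. Its signal was 13.92, 11.34, 7.91, 9.17 and 11.33 on miR-132 replicates 1 to 5, against 10.59, 13.19, 9, 6.37 and 11.08 on control replicates 1 to 5. The groups overlapped over nearly their whole range, with miR-132 replicate 1 highest and control replicate 4 lowest of all. The mean was 10.73 ± 2.31 with miR-132 and 10.05 ± 2.54 in controls (SD, n = 5 each). The difference of 0.69 ± 1.39 (SE) had a 95% interval of -2.42 to 3.80 on the log2 scale, so these arrays leave room for a large difference in either direction (limma's unadjusted p of 0.632, adjusted p of 0.921). It was -0.11 without miR-132 replicate 1 and -0.23 without control replicate 4. Among tested genes below the limit, 99.9% had a smaller SD over the 10 arrays than Krt77.

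Krt10 had values below the limit on control replicates 3 and 4 alone, and these were the control arrays with the lowest Krt77 (9 and 6.37). On miR-132 replicates 3 and 4, where Krt77 was 7.91 and 9.17, Krt10 was at the limit. A shared cause of the low values was not tested. The 250 bases before the RefSeq starts of Krt10 and Krt77 are shown for comparison (GRCm38.p6, both on the minus strand, printed 5′ to 3′ along the gene). The Krt10 stretch is chr11:99389365-99389614 and the Krt77 stretch chr15:101869706-101869955. Capitals mark the motif TATAAA of the TATA box, searched on both strands together with the AP-1 motif TGANTCA.
Krt10: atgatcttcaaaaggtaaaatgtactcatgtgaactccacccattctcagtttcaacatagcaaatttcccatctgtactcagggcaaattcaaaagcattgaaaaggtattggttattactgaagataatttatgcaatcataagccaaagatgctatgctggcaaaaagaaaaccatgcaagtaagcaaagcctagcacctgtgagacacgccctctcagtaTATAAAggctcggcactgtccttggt
Krt77: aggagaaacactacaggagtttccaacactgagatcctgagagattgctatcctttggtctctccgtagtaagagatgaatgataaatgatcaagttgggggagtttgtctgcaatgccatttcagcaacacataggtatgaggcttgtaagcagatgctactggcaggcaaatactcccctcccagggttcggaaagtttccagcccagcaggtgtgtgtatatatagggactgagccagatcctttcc

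The Krt10 stretch held 1 exact match to TATAAA, starting 26 bases before the gene's start, and the Krt77 stretch held 0. Other forms of the TATA box were not searched, so the run tatatata near the end of the Krt77 stretch was not counted. The 0 therefore does not mean that Krt77 lacks a TATA box. Over the 32851 promoter entries of the RefSeq table, 12.4% of such 250-base stretches held TATAAA. Neither stretch held TGANTCA, which was found in 6.75% of them. Of the 10 keratins, 4 had a promoter entry.

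Krt15, the basal keratin that could be measured, had nearly the same mean in both groups with a wide spread. It is a type I keratin of the basal layer and, in mouse skin, of the stem cell region of the hair follicle. Its signal was 10.96, 7, 5.74, 7.04 and 7.55 on miR-132 replicates 1 to 5, against 7.99, 10.24, 6.23, 5.98 and 7.95 on control replicates 1 to 5. One array of each group stood above the rest, miR-132 replicate 1 and control replicate 2. The mean was 7.66 ± 1.96 with miR-132 and 7.68 ± 1.71 in controls (SD, n = 5 each). The difference was -0.02 ± 1.06 (SE), with a 95% interval of -2.38 to 2.34 (limma's unadjusted p of 0.985, adjusted p of 1.0), and its sign turned under 12 of the 23 alternatives run. It was -0.85 without miR-132 replicate 1 and 0.62 without control replicate 2.

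**Figure D2:**
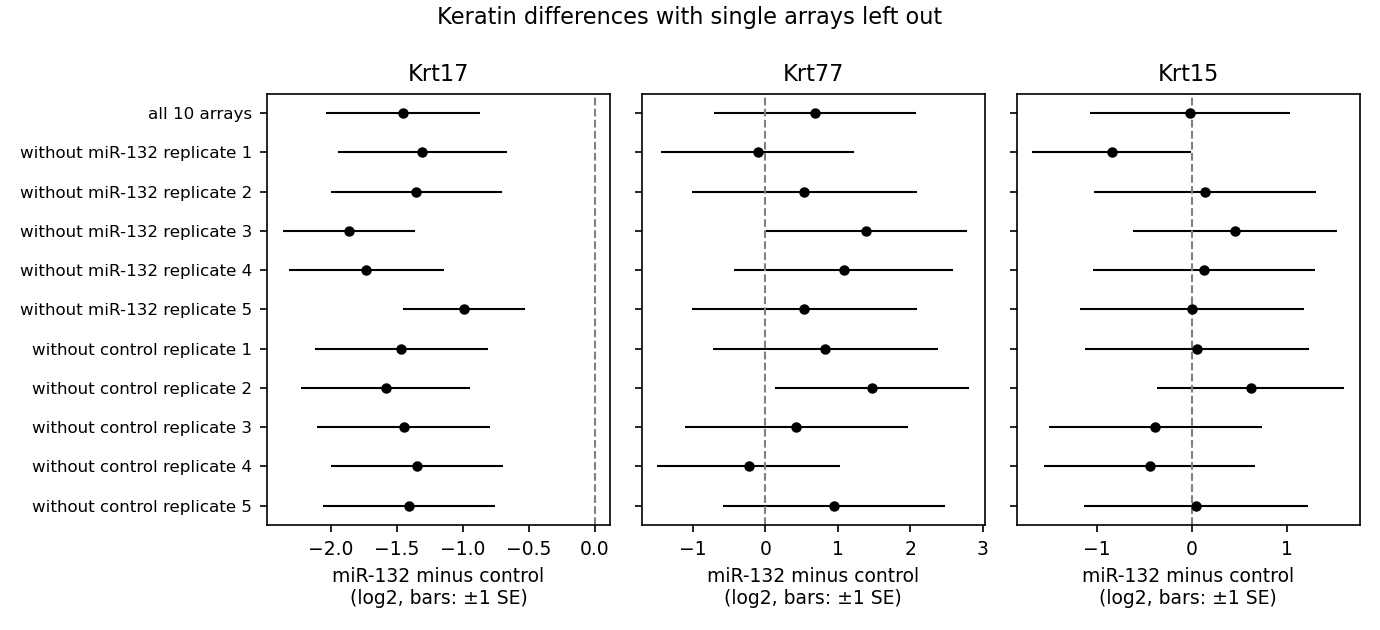
Difference between miR-132 and control arrays on the log2 scale (x axis) for Krt17, Krt77 and Krt15 with all 10 arrays and with each array left out in turn (rows), points with bars of 1 SE. Krt17 stays between -1.86 and -0.99, Krt77 runs from -0.23 to 1.47 and Krt15 from -0.85 to 0.62.

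Across the 10 arrays Krt77 and Krt15 went together, and Krt17 ranked opposite to Krt77. All 3 pairs of the keratins measured below the limit were compared, and p-values were adjusted over these 3. For Krt77 and Krt15 Pearson's r was 0.90 (permutation p of 0.00023, adjusted p of 0.00069) and Spearman's rho 0.82 (permutation p of 0.00564, adjusted p of 0.00846). Without the 2 arrays farthest from the median Krt77, miR-132 replicate 1 and control replicate 4, r was 0.89, and r of the deviations from each group's mean was 0.91. The highest Krt15 and Krt77 values of each group fell on the same array, miR-132 replicate 1 and control replicate 2, and the lowest on miR-132 replicate 3 and control replicate 4.

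Those same low arrays had the highest Krt17 of their groups, 16.26 on miR-132 replicate 3 and 16.47 on control replicate 4. For Krt17 and Krt77 Spearman's rho was -0.83 (permutation p of 0.0046, adjusted p of 0.00846), while Pearson's r was -0.59 (permutation p of 0.0746, adjusted p of 0.112). The r was -0.56 without miR-132 replicates 1 and 5, the arrays farthest from the median Krt17, and -0.64 for deviations from the group means. It was -0.72 without miR-132 replicate 5 (permutation, adjusted p of 0.0438, 9 arrays), the strongest value when 1 array was dropped. The weakest was -0.50, found on dropping miR-132 replicate 1 (permutation, adjusted p of 0.267). No other drop of 1 array brought the adjusted p under 0.05. For Krt17 and Krt15 r was -0.38 (permutation p of 0.27, adjusted p of 0.27) and rho -0.60 (permutation p of 0.0728, adjusted p of 0.0728). Without miR-132 replicates 1 and 5 that r was -0.25. For the same pair, dropping only miR-132 replicate 1 gave -0.19 (permutation, adjusted p of 0.575). Dropping only miR-132 replicate 5 gave -0.58 (permutation, adjusted p of 0.0731), and these were the weakest and strongest values with 1 array dropped. Without miR-132 replicates 2 and 5, r was -0.78 for Krt17 with Krt77 and -0.83 for Krt17 with Krt15 (permutation, adjusted p of 0.00595 each, 8 arrays). Both values of a point come from 1 array and share its RNA, its processing and its mix of cells.

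**Figure D3:**
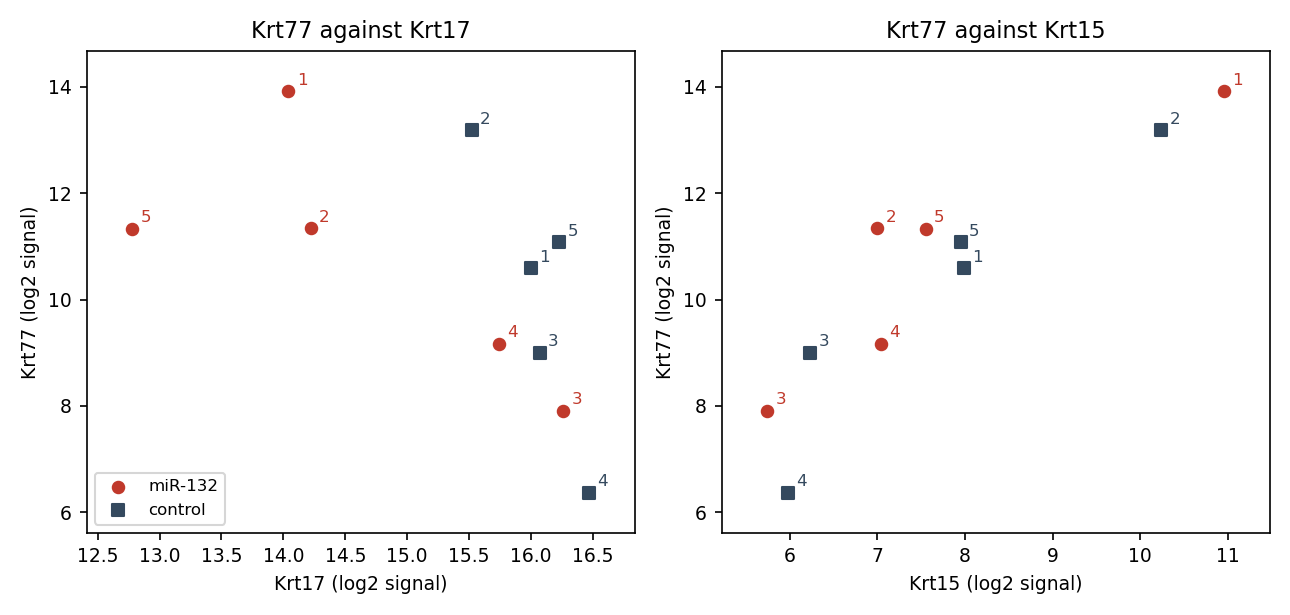
Log2 signal of Krt77 (y axes) against Krt17 (left) and against Krt15 (right), 1 point per array, red circles for miR-132, dark squares for control, numbered by replicate. Krt77 climbs with Krt15 (r of 0.90), and the arrays highest in Krt17, miR-132 replicate 3 and control replicate 4, are the lowest of their groups in Krt77.

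The genes whose pattern over the 10 arrays was most like each measured keratin were ranked by Pearson's r among 12529 tested genes, without p-values. Nearest to Krt17 were Uox, which encodes urate oxidase (r of 0.97), Sprr2d (0.97) and Sprr2e (0.97), small proline-rich proteins of the cornified envelope, Pdzk1ip1 (0.97) and Zc3h12a (0.96), an RNase that degrades cytokine messages. Uox ranged from 5.39 to 11.98 over the arrays and Sprr2d from 11.88 to 18.93. Nearest to Krt77 were Dapl1 (0.97), Flg2, a filaggrin-family gene of the granular layer (0.95), the calcium pump gene Atp2a3 (0.94), Slc24a3 (0.92) and Cobl (0.92). Flg2 ranged from 4.19 to 16.43, while Atp2a3 ranged only from 4.69 to 5.0. Nearest to Krt15 were Dcaf6 (0.93), Slc6a4 (0.92), Dapl1 (0.91), Bbs10 (0.91) and the late cornified envelope gene Lce1m (0.91). Of these, Dcaf6 ranged only from 8.28 to 8.77 (Spearman's rho of 0.66), Slc6a4 from 4.88 to 5.48 and Bbs10 from 4.38 to 4.97. Dapl1 was thus near both Krt77 and Krt15.

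The tested keratins outside the 10 all had smaller differences than Krt17. Of 11 other surface epithelial keratins 7 were tested, 5 lower and 2 higher on average, with a median difference of -0.01 beside -0.02 over all tested genes, and 0 had an unadjusted p under 0.05. Krt79, a keratin of the upper hair follicle and sebaceous duct in mice, had the largest difference of them at -0.89 ± 0.54 (SE, limma's adjusted p of 0.685), which turned to 0.27 once the hybridisation controls entered the fit. Krt80 differed by -0.47 ± 0.33 and the dim Krt12 by 0.12 ± 0.08. Krt2, a keratin of the upper suprabasal epidermis, had nearly equal means (-0.01 ± 0.96), with 4.77 to 9.86 in the miR-132 group, highest on replicate 2, against 4.66 to 7.94 among controls.

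Keratins of simple epithelia and of the hair follicle were near the level filter. Of 5 simple epithelial keratins 3 were tested, Krt7 at 0.06 (-0.002 after centring each array on its median), Krt8 at -0.06 and Krt19 at -0.01. Of 9 keratins of the follicle sheaths 5 were tested, and all 5 averaged higher, with a median of 0.08 and an unadjusted p of 0.613 or more. Krt71, an inner root sheath keratin, reached 6.76 on replicate 5 of the miR-132 group, whose remaining arrays had 4.02 to 4.39, against 5.65 on replicate 5 of the controls, whose remaining arrays had 3.86 to 4.87. Its difference was 0.26 ± 0.57 and turned to -0.25 without miR-132 replicate 5, and Krt27 (0.14) and Krt28 (0.08) turned to -0.07 and -0.10. Of 16 hair shaft keratins 12 had their own feature and 2 lay above the filter, Krt33b at -0.08 and Krt86 at -0.09.

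Genes for proteins that anchor, bundle or organise keratin filaments averaged lower in 8 of the 10 tested (53.6% over all tested genes), with a median difference of -0.58 (-0.02 over all genes). This list too was chosen with earlier results of these data known, so its counts are a description and not a test. The 2 that averaged higher were Flg, whose product filaggrin bundles keratin filaments, at 0.28 ± 1.43, and Tchp at 0.07 ± 0.05. At an unadjusted p under 0.05, 5 were lower, where 5.61% of all tested genes were, and 0 passed after adjustment. That count was 1 without miR-132 replicate 4 or control replicate 1, and 2 without miR-132 replicate 1, 2 or 5 or control replicate 2 or 5. It was 3 without control replicate 4, 6 without control replicate 3 and 7 without miR-132 replicate 3. With the hybridisation controls as a covariate it was 1, and with quantile normalization 3. Dsp encodes desmoplakin, the desmosomal anchor of keratin filaments. It measured 18.87, 18.69, 19.32, 18.39 and 18.30 on miR-132 replicates 1 to 5, against 19.26, 19.26, 19.23, 19.26 and 19.23 on control replicates 1 to 5. The control arrays were nearly identical in the narrow band below the limit, and miR-132 replicate 3 lay above all of them. The Dsp difference was -0.53 ± 0.17, that of Fam83h, which organises keratin filaments, -0.62 ± 0.24, and that of Plec, a linker of hemidesmosomes, -0.44 ± 0.17 (SE, limma's adjusted p of 0.596 each).

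Regulators of keratin genes averaged lower in 14 of 15 tested (53.6% over all tested genes), with a median difference of -0.46. The regulators were likewise listed with earlier results of these data known, so their counts are a description and not a test. At an unadjusted p under 0.05, 9 were lower, where 5.61% of all tested genes were, with 5 without control replicate 5, and 0 passed after adjustment. Of the tested genes, 9 linkers and 13 regulators lay above the 75th percentile of signal, where genes leaned further to lower (855 lower and 78 higher). Klf4, a factor of epidermal differentiation, averaged 9.24 ± 0.50 with miR-132 and 10.07 ± 0.22 in controls (SD, n = 5 each), a difference of -0.83 ± 0.24 (SE). Grhl3, a factor needed for barrier formation and wound closure, differed by -2.06 ± 0.67 and Stat3, which transmits cytokine signals, by -0.66 ± 0.23 (SE, limma's adjusted p of 0.596 for all 3). Without miR-132 replicates 2 and 5, 1 of the linkers and 1 of the regulators had an unadjusted p under 0.05, while 8 of 10 and 15 of 15 averaged lower. Dsp, Jup and Pkp1 of the linkers and Trp63 of the regulators are also among the 12 keratinocyte markers, whose median was -0.61, and the part of keratinocyte content in these lists was not tested.

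**Figure D4:**
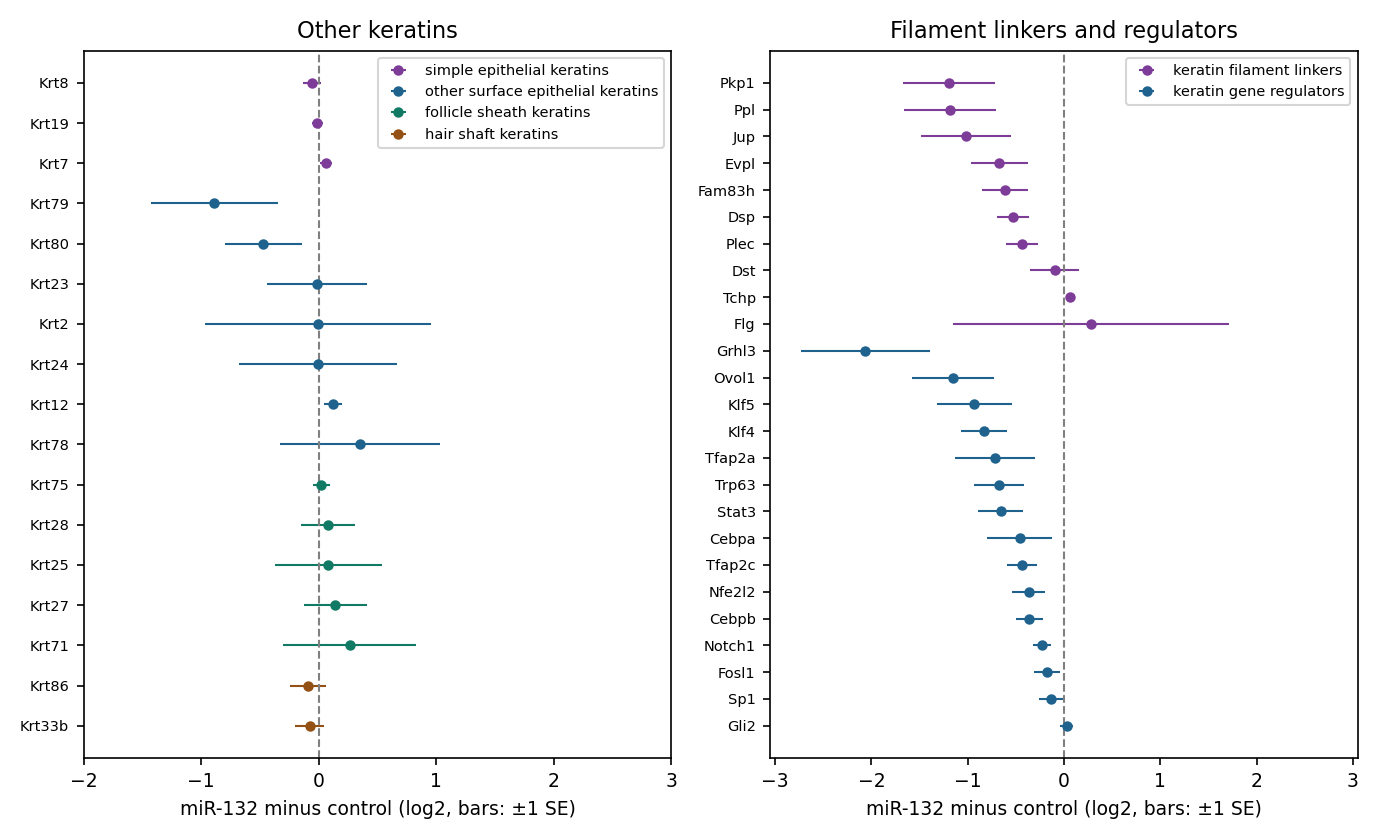
Difference between miR-132 and control arrays on the log2 scale (x axes) for each tested gene of the other keratin lists (left) and of the filament linkers and keratin regulators (right), points with bars of 1 SE, colours for the lists. The other keratins scatter around 0, whereas 8 of 10 linkers and 14 of 15 regulators lie left of it, with Grhl3 at -2.06. All lists were chosen with earlier results of these data known.

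Leaving out miR-132 replicate 3 turned several of these genes past the adjusted threshold, with 52 genes called in all, every one lower (0.295%). They held 4 of the 10 linkers, Dsp, Fam83h, Jup and Pkp1, and 3 of the 15 regulators, Grhl3, Tfap2a and Tfap2c (limma's adjusted p of 0.0293 to 0.0489). They also held 6 of the 12 keratinocyte markers, Cdh1, Dsg3, Sfn and the linkers Dsp, Jup and Pkp1, which are on both lists. Krt17 was not among them. With quantile normalization as well, a setting chosen after the data were seen, 0 genes passed (0.0%). The linker, regulator and marker lists were chosen with earlier results of these data known.

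Markers of other cells in the biopsies had no gene at an unadjusted p under 0.05. Of 8 neutrophil markers, S100a8 and S100a9 were at the limit on 9 of 10 arrays each, and no difference is drawn from them. The array means of the other 6, all lower on average, spanned 6.67 to 7.45 in the miR-132 group, against 6.47 to 9.12 among controls. Those of 5 adipocyte markers, all higher on average, spanned 8.45 to 11.87, against 8.43 to 11.12 among controls. For 6 skeletal muscle markers, all lower on average, the span was 10.94 to 14.40 in the miR-132 group, against 10.92 to 14.14 among controls, and for 5 sebaceous gland markers, also all lower, 7.94 to 10.28 against 8.51 to 9.97. The 4 tested hair follicle markers, of 7 listed, spanned 4.96 to 5.19 in the miR-132 group, against 5.06 to 5.29 among controls, and lay near the level filter of 4.17. Fibroblast, macrophage, endothelial and melanocyte markers had mean differences of -0.10 to -0.03. Of the fibroblast markers, Dcn was 17.88 on all 5 control arrays and Col1a1 was 17.49 on control replicates 1 to 3. In the miR-132 group Dcn ran from 17.86 to 18.16 and Col1a1 from 16.52 to 17.66. Why the control values repeat was not tested, and the small fibroblast difference does not show equal fibroblast content. The part of any of these cell types in the keratin values was not tested.

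The arrays themselves differed in range. The span from the 10th to the 90th percentile of signal was 4.41 and 4.63 for replicates 2 and 5 of the miR-132 group, 4.88 to 4.92 for its replicates 1, 3 and 4, and 4.81 to 5.03 for the controls. Krt17 on these narrow arrays was 14.22 and 12.78. The number of features at the limit was 387 to 430 with miR-132 and 338 to 424 in controls, and the fewest were on control replicate 4, where Krt10 and Krt77 were lowest. Hybridisation controls averaged 10.98, 10.9 and 10.95 on miR-132 replicates 3, 4 and 5. They averaged 10.61 and 10.57 on miR-132 replicates 1 and 2, and 10.43 to 10.61 in controls. The higher level was thus found in the miR-132 group alone, so it cannot be fully told apart from the mimic. With the hybridisation controls as a covariate in limma the Krt17 difference was -1.82 (unadjusted p of 0.0608).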

How the data were processed

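Total RNA (150 ng) from each wound-edge biopsy was run on 1 Clariom D array per mouse. The deposited value of each feature was made by the authors in Affymetrix Expression Console 1.4 by RMA (background correction, normalization between arrays, probe summary), per the submitters' processing notes. These deposited values were taken as log2 signal, a scale read from their range and from the shared limit of 19.93. Of 72688 features, 31216 named 1 gene, 1534 several and 39938 none in the platform annotation, and symbols were updated by gene identifier. Genome coordinates come from the RefSeq tables (GRCm38.p6), not from the arrays, for which the sources used here name no build. The brightest one-gene feature stood for a gene, and genes with a mean above 4.171, the median over features, were tested.

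The groups were compared with limma 3.58.1 in R 4.3.3 (lmFit, eBayes with intensity trend) over all 17635 tested genes, two-sided, without covariates, with Benjamini-Hochberg adjustment at 0.05. The procedure was checked on simulated arrays with independent noise, the same SD in both groups and no gene at the limit. That check does not cover the unequal spread of the groups, variation shared between genes or the limit. Correlations used 100000 permutations. The number of arrays limits the precision. The keratins, the 6 gene lists and the 10 marker lists were chosen with earlier results of these data known. All 10 keratins are named. Each list gives its 3 tested genes with the smallest p, each measured keratin the 5 most correlated genes other than predicted genes and small RNAs. Further genes were named after their values were seen (Krt2, Flg, Tchp, S100a8, S100a9, the genes called without miR-132 replicate 3). The alternatives were other level filters, normalizations and variance models, a replicate block, averaged features, missing values for the limit, a covariate, exact permutation and arrays left out.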

Additional observations from a re-analysis of the deposited data

Results flagged for a closer look

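In 43 groups of 5 arrays (the keratins and the genes named from the lists), 5 values stood apart from the other 4 arrays of their group by more than 0.71 of the group's range, Dixon's 95% critical value. Chance flags about 1 in 20 groups. In 3 of the 5 the other arrays lay at or next to the signal limit of 19.93. These were Krt5 at 18.97 on miR-132 replicate 5, Krt14 at 19.84 on miR-132 replicate 1, and Krt10 at 18.43 on control replicate 4. Krt71 stood at 6.76 on miR-132 replicate 5, with the next miR-132 array at 4.39. Krt19 was 4.26 on miR-132 replicate 2 and 4.36 on the other miR-132 arrays, a small step at a low level.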

How the results depend on the processing

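No keratin passed the adjusted threshold under any of the alternatives run, and Krt17 was lower in all 23 of them, from -1.86 to -0.71, with adjusted p of 0.15 to 0.836. The count of keratins at an unadjusted p under 0.05 was 1 on all arrays and ranged from 0 to 1 when single arrays were left out (0 without miR-132 replicate 1, 2 or 5 or control replicate 1, 3, 4 or 5). It was also 0 when the hybridisation controls entered as a covariate (Krt17 at -1.82), and 0 without miR-132 replicates 2 and 5. The count of genes called over all tested genes ranged from 0 to 52 when single arrays were left out. At an unadjusted p under 0.05 the lower and higher genes, 990 and 436, were 989 and 1646 with no level filter, 855 and 78 with a filter at the 75th percentile, 401 and 615 when replicates 2 and 5 of the miR-132 group were dropped, and 1265 and 1387 with quantile normalization and without miR-132 replicate 3, the setting chosen after seeing the data. They were 618 to 1840 and 331 to 642 with single arrays left out. The reversed signs, none of a difference with an unadjusted p under 0.05, were as follows, and their cause was not tested. Krt15 turned to 0.0877 with quantile normalization, 0.0397 with array weights, 0.91 with the covariate, 0.24 with both replicates 2 and 5 of the miR-132 group dropped, and 0.59 with quantile normalization and without miR-132 replicate 3, and ranged from -0.85 to 0.62 with single arrays left out. Krt77 ranged from -0.23 to 1.47, Krt19 from -0.035 to 0.006, Krt27 from -0.0655 to 0.33, Krt28 from -0.10 to 0.19, Krt71 from -0.25 to 0.56, Krt33b from -0.15 to 0.02 and Krt86 from -0.18 to 0.0295 with single arrays left out. Krt7 turned to -0.002 with centring and -0.0024 with quantile normalization and without miR-132 replicate 3. With the covariate Krt12 turned to -0.0086, Krt79 to 0.27, Krt27 to -0.0714 and Krt71 to -0.26. Without miR-132 replicates 2 and 5 Krt19 turned to 0.006, Krt27 to -0.15, Krt28 to -0.24 and Krt71 to -0.31. With the replicate number as a block the counts were 0 genes called, 0 keratins called and 1 keratin at an unadjusted p under 0.05, 806 lower and 467 higher genes lay under it, and 2 of the linkers against 5 without the block. Deviations from the group means on same-numbered arrays correlated at 0.16, 0.14, 0.04, 0.00 and -0.03 over genes for replicates 1 to 5. The best-matching control array had the same number for miR-132 replicates 1 and 2 but not for 3, 4 and 5. Low correlations over all genes cannot exclude a pairing, so whether the shared numbers mean more than names is not known. With values at the limit set to missing, Krt5, Krt10 and Krt14 gave no difference. Signal near the limit restricts what can be said of 7 of the 10 keratins.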
